A study of Homo sapiens with 6 samples.

Results

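The 60 genes described here encode proteins of ribosome biogenesis and of the nucleolus, and were taken by symbol from the 63241 genes of the deposited table, where each symbol matched 1 gene. They comprise 8 core proteins of the small nucleolar ribonucleoproteins (snoRNPs), 4 nucleolar proteins that act at several steps, 8 subunits or cofactors of RNA polymerase I, 21 factors of small-subunit assembly and 19 of large-subunit assembly. They were measured by RNA-seq in HT−29 cells, an established human colorectal adenocarcinoma line labelled wild type, in 6 libraries. The 3 Control libraries come from cells given buffer, and the 3 A904 libraries from cells given 0.5 μM Amuc_0904, a recombinant outer membrane protein of *Akkermansia muciniphila*, both for 72 h. It is not stated if replicates came from different cultures, so p values measure only the spread between these libraries. The study asks how the protein changes gene expression in these cells.

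Ribosomes are built in the nucleolus, where RNA polymerase I transcribes the precursor of the large ribosomal RNAs. Box C/D snoRNPs methylate this precursor and box H/ACA snoRNPs convert chosen uridines to pseudouridine, each led to its site by a small nucleolar RNA (snoRNA). A large set of assembly factors then folds and cuts the RNA into the small and large subunits, and cells that grow and divide fast, among them colon cancer cells, make many of these factors.

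The promoter windows below show the E-box CACGTG, the site read by MYC and related factors, which was chosen after the values were seen. It was found in a larger share of these promoters than of all promoters, as were other motifs given below. Of the 60 genes, 51 had a promoter in the RefSeq table (GRCh38.p14, 250 bases before the start and 50 after it), and *BOP1*, *DDX18*, *NOLC1*, *NOP58*, *POLR1E*, *RRP12*, *RRP1B*, *RRS1* and *SNU13* had none. CACGTG, which reads the same on both strands, was in 18 of the 51 (35.3%) and in 1040 of 10237 promoters of tested genes (10.2%). For each of 6 genes the site nearest the start is printed 5′ to 3′ on the gene's strand, with CACGTG in capitals and 12 bases on each side. These are, in each role group, up to 2 genes with the smallest p whose site has these flanks inside the window.
*FBL*, chr19:39846356-39846385, minus strand: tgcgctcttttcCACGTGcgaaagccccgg
*NOP10*, chr15:34343130-34343159, minus strand: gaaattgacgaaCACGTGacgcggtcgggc
*IMP4*, chr2:130342900-130342929, plus strand: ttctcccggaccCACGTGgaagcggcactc
*RRP9*, chr3:51941892-51941921, minus strand: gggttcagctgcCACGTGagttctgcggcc
*GNL2*, chr1:37595917-37595946, minus strand: gtacgtcgtgcaCACGTGgtccggcgtggt
*PES1*, chr22:30591880-30591909, minus strand: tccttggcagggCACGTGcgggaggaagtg

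Counted from the annotated start as 0, the first C of the site lies at 6 in *FBL*, −11 in *NOP10*, 15 in *IMP4*, −5 in *RRP9*, 3 in *GNL2* and 13 in *PES1*. The nearest site was the one chosen for printing, and 2 of these genes hold a second one farther out, at −203 in *IMP4* and −170 in *NOP10*. The other 6 motifs were also searched on both strands. The ETS core CCGGAAG was in 22 of the 51 (43.1%, against 20.1% of all), the NRF1 core GCATGCGC in 4 (7.84%, against 5.69%) and the CGCG box CTCGCGAG in 4 (7.84%, against 2.11%). The CCAAT box CCAAT was in 22 (43.1%, against 37.3%), the GC box GGGCGG in 39 (76.5%, against 70.0%) and the TATA box TATAAA in 2 (3.92%, against 5.86%). The 18 genes with CACGTG had a median log2 fold change of 0.24 in A904 against Control, and the 33 without it 0.20. Over all tested genes with a promoter, the medians were 0.026 with CACGTG and 0.006 without it. A match describes these letters only, and binding was not measured.

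Values are TPM, transcript abundances scaled by gene length and to a total of 1000000 per library. No counts are given, so the depth of the libraries and the counting error of a value are unknown. Fold changes are on the log2(TPM + 1) scale, which understates the change of low genes, and were tested with limma over 14333 genes that reached 1 TPM in 3 or more libraries, as all 60 genes did. A gene is called at an adjusted p under 0.05. A904 replicate 1 stood apart from A904 replicates 2 and 3, so results are also given without it. This choice was made from the same values and leaves only A904 replicates 2 and 3 in that group. Removing the deviating library lowers the spread, which favours small p values, so those results are a description. The share of TPM from mitochondrially encoded transcripts was 12.8% to 13.5% in Control, 13.0% in A904 replicate 1, and 10.6% and 11.1% in A904 replicates 2 and 3. Epithelial markers were present (summed TPM of 12 genes 7144 to 7189 in Control and 7159 to 8001 in A904), although *CDX1* and *CDX2* were near 1 TPM. *CEACAM5* was low too, with means of 1.38 TPM in Control and 2.76 TPM in A904. The largest parts of the sum were *KRT8* and *KRT18*, with Control means of 2726 and 1966 TPM. Of 12 markers of leukocytes, stroma and endothelium, *CD3E* and *COL1A2* were listed at 0 in all 6 libraries and *PTPRC* had means under 0.01 TPM. The macrophage marker *CD68* had 8.13 to 13.8 TPM over the 6 libraries, with overlapping groups, and *COL1A1*, *ACTA2* and *PECAM1* had means from 1.02 to 1.31 TPM. *CD79A*, *VWF*, *DCN* and *VIM* were below the filter, and *LYZ*, a secreted lysozyme, gave nearly all of the summed TPM of 2591 to 2635 in Control and 2490 to 2711 in A904.

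As a set, the ribosome biogenesis genes had slightly higher levels in A904, by a small fold and with A904 replicate 1 close to Control. Their means were higher in 57 of the 60, against 50.4% of all tested genes, and the median log2 fold change was 0.21, against 0.001 over all tested genes. By limma, 0 of the 60 passed the adjusted p in either direction (lowest adjusted p = 0.123, for *IMP4*), where 0.0698% of all tested genes rose and 0.167% fell. At p under 0.05 without adjustment, 38 were higher and none lower, against 9.95% and 5.87% of all tested genes. In bulk samples, more cells of a kind and a higher level per cell cannot be told apart. TPM is a share of each library, so the amount of RNA per cell is not known. In 40 genes every A904 library was above every Control library, and in 0 below, where these shares were 13.4% and 7.59% over all tested genes.

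The single libraries show how uneven the A904 group was. Against the Control mean, the median of the 60 genes was −0.01, −0.01 and 0.01 in Control replicates 1, 2 and 3. It was 0.09 in A904 replicate 1, 0.27 in replicate 2 and 0.27 in replicate 3, so the last 2 lay well away from all other libraries. The median of all tested genes was itself 0.06 in A904 replicate 1, and −0.02 and −0.03 in replicates 2 and 3. A904 replicate 1 lay above all Control libraries in 43 of the 60 genes (42.1% of all tested genes), replicate 2 in 55 (31.3%) and replicate 3 in 53 (30.6%). Replicate 1 was the lowest of the A904 libraries in 48 of the 60, or 80.0%, and in 27.4% of all tested genes. Without A904 replicate 1, 42 of the 60 rose and 1, *POLR1D*, fell by limma at the adjusted p, where 9.51% of all tested genes rose and 9.24% fell, and the median log2 fold change was 0.27.

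**Figure D1:**
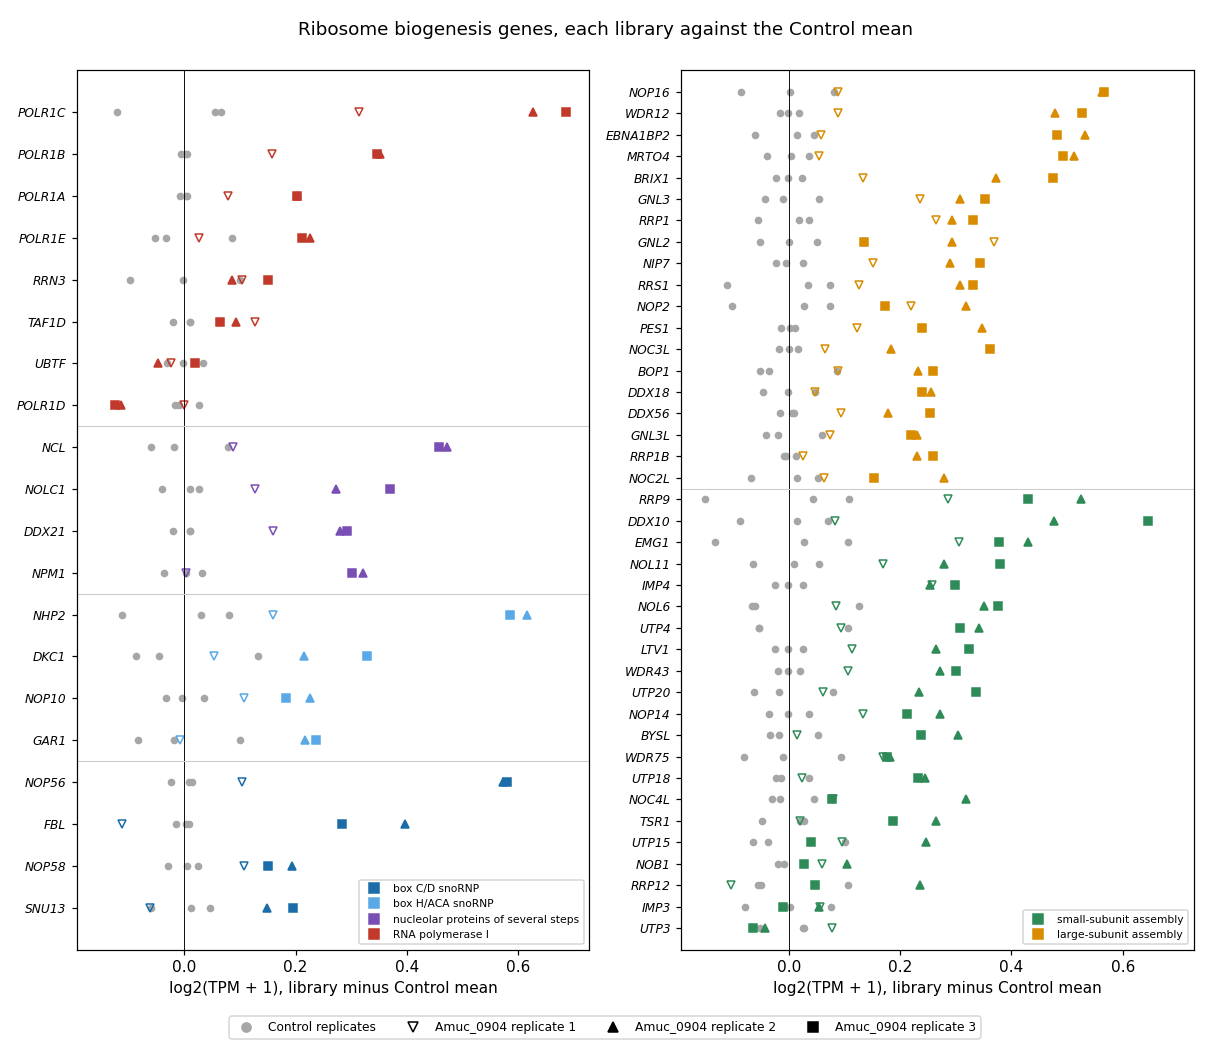
Difference of each library from the Control mean on the log2(TPM + 1) scale for the 60 genes, coloured by role (grey circles, Control; open triangles, A904 replicate 1; filled triangles and squares, A904 replicates 2 and 3). In most genes A904 replicates 2 and 3 lie to the right of all Control libraries and A904 replicate 1 lies between, while *UBTF*, *UTP3* and *POLR1D* lie near or left of 0.

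In summed level, too, A904 replicates 2 and 3 were the highest libraries. The 60 genes held 0.618%, 0.616% and 0.634% of TPM in Control and 0.648%, 0.777% and 0.765% in A904. *NPM1* and *FBL* alone make up much of this sum, and the other 58 genes summed to 4104, 4043 and 4194 TPM in Control and to 4419, 5076 and 5056 TPM in A904. Levels of single genes, compared per length as TPM, ran from 3.63 TPM for *UTP20* to 1334 TPM for *NPM1* as Control means, with a median of 44.5 TPM against 13.5 TPM over all tested genes. By role, the Control medians were 278 TPM for the nucleolar proteins of several steps, 177 and 174 TPM for the box C/D and H/ACA proteins, 39.3 and 39.1 TPM for large-subunit factors and the polymerase I genes, and 20.8 TPM for small-subunit factors.

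All 8 core snoRNP proteins had higher means in A904. By limma, 0 of the 8 passed the adjusted p (4 higher at p under 0.05 unadjusted, against 9.95% of all tested genes). The box C/D particle holds FBL, the methyltransferase, the scaffold pair NOP56 and NOP58, and SNU13, which binds the snoRNA first. *NOP56* (chromosome 20, 2652145 to 2658393 on GRCh38) had 249, 243 and 248 TPM in Control and 265, 367 and 369 TPM in A904. Its 3 A904 libraries were above all Control libraries, replicate 1 by little (log2 fold change 0.42, standard error 0.12, limma adjusted p = 0.238). Its partner *NOP58*, which is structurally related to it, had 106, 109 and 110 TPM in Control and 117, 124 and 120 TPM in A904. The log2 fold change was 0.15 and the groups did not overlap (limma adjusted p = 0.248). *FBL* was the most abundant of the 4, with 770, 780 and 782 TPM in Control. In A904 it had 719, 1023 and 946 TPM, so that replicate 1 fell below every Control library and the groups overlapped (limma adjusted p = 0.477, and 0.00306 without A904 replicate 1). *SNU13* had 93.9, 89.2 and 96.1 TPM in Control and 89.1, 103 and 107 TPM in A904, and replicate 1 again lay below the Control libraries (limma adjusted p = 0.573).

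The box H/ACA particle is built on DKC1, the pseudouridine synthase mutated in dyskeratosis congenita, with NOP10, NHP2 and GAR1. *NHP2* (chromosome 5, 178149460 to 178153967) had 248, 217 and 239 TPM in Control and 262, 359 and 352 TPM in A904. These groups did not overlap, and the log2 fold change of 0.45 was the largest of the snoRNP genes (standard error 0.12, limma adjusted p = 0.234). Of its annotated exon bases, 43.8% overlap exons of *RMND5B* on the other strand, whose mean was 19.4 TPM. *NOP10*, the most abundant of the 4, had 507, 497 and 521 TPM in Control and 548, 595 and 577 TPM in A904. Its groups did not overlap although its log2 fold change was only 0.17 (limma adjusted p = 0.238). *DKC1* had 110, 107 and 125 TPM in Control and 118, 132 and 143 TPM in A904, with overlapping groups (log2 fold change 0.20, limma adjusted p = 0.328). *GAR1*, the lowest of the 4, ranged from 65.2 to 74.2 TPM in Control, and in A904 from 68.8 to 81.6 TPM, and its groups overlapped (limma adjusted p = 0.421). Without A904 replicate 1, all 8 snoRNP genes rose by limma, with adjusted p values from 0.000278 for *NOP56* to 0.0493 for *DKC1*, where 9.51% of all tested genes rose and 9.24% fell.

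The 4 nucleolar proteins of several steps had a median log2 fold change of 0.25. By limma, 0 of the 4 passed the adjusted p (4 higher at p under 0.05 unadjusted, against 9.95% of all tested genes). *NPM1*, the abundant histone and ribosome chaperone of the granular nucleolus, had 1301, 1337 and 1365 TPM in Control and 1337, 1667 and 1646 TPM in A904. Replicate 1 lay within the Control range (log2 fold change 0.21, limma adjusted p = 0.307). The file also lists 49 *NPM1* pseudogenes, whose mean TPM sums to 0.944% of that of *NPM1*, and how reads were split among them is not known. *NCL*, nucleolin, which binds the ribosomal RNA precursor, had 447, 460 and 492 TPM in Control and 495, 647 and 640 TPM in A904. Here replicate 1 was just above the highest Control library (log2 fold change 0.34, limma adjusted p = 0.248). *NOLC1*, a chaperone of snoRNPs, had 87.6 to 91.8 TPM in Control and 98.4, 109 and 117 TPM in A904. *DDX21* (chromosome 10, 68956128 to 68985073), an RNA helicase of polymerase I transcription and RNA processing, had 70.9, 72.4 and 72.4 TPM in Control and 80.4, 87.5 and 88.2 TPM in A904. All A904 libraries exceeded the narrow Control range for both helicase and chaperone (log2 fold change 0.24 for *DDX21*, standard error 0.05, limma adjusted p = 0.200, and 0.26 for *NOLC1*, limma adjusted p = 0.232).

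**Figure D2:**
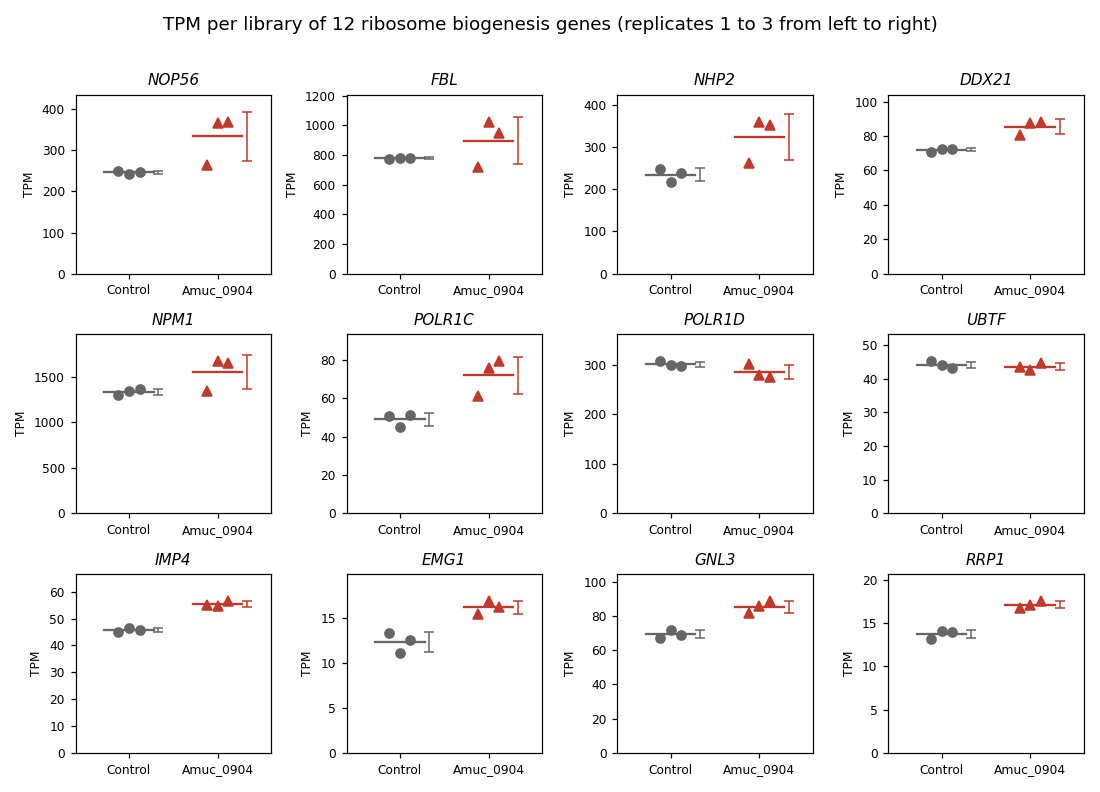
TPM per library of 12 genes (circles, Control; triangles, A904; horizontal line, mean of 3 libraries; side bar, ± SD), each axis from 0. *IMP4*, *GNL3* and *RRP1* keep all A904 libraries together above Control, whereas in *NOP56*, *FBL*, *NHP2* and *NPM1* A904 replicate 1 stays near or within the Control range.

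The RNA polymerase I genes were the most mixed group. Of the 8, 6 had higher and 2 lower means, and the median log2 fold change was 0.13. By limma, 0 passed the adjusted p (2 higher at p under 0.05 unadjusted, against 9.95% of all tested genes). *POLR1C* (chromosome 6, 43509702 to 43562419), a subunit shared with RNA polymerase III, had 50.9, 45.0 and 51.3 TPM in Control and 61.1, 76.1 and 79.3 TPM in A904. It had the highest log2 fold change of all 60 genes, 0.54, with no overlap between the groups (standard error 0.11, fold 1.46, limma adjusted p = 0.166). *POLR1D* (chromosome 13, 27620742 to 27744237), its partner in the same shared pair, went the other way, with 307, 299 and 297 TPM in Control and 301, 278 and 276 TPM in A904. Replicate 1 lay within the Control range and replicates 2 and 3 below it (log2 fold change −0.08, limma adjusted p = 0.475, and 0.0288 without A904 replicate 1). The 2 large catalytic subunits were low but close together within Control. *POLR1A* had 7.25, 7.19 and 7.26 TPM in Control and 7.69, 8.48 and 8.47 TPM in A904. *POLR1B* had 10.8 TPM in each Control library and 12.2, 14.1 and 14.0 TPM in A904 (log2 fold change 0.16 and 0.29, limma adjusted p = 0.359 and 0.234). Neither gene's groups overlapped.

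The cofactors of polymerase I had smaller fold changes than *POLR1B* and *POLR1C*. *UBTF*, which opens ribosomal gene chromatin, ranged from 43.2 to 45.1 TPM in Control, and in A904 from 42.6 to 44.7 TPM (log2 fold change −0.02, limma adjusted p = 0.891). *RRN3*, the initiation factor that joins polymerase I to the promoter, ranged from 31.7 to 36.5 TPM in Control, and in A904 from 36.2 to 37.9 TPM (limma adjusted p = 0.432). Its 5 listed pseudogenes summed to 12.4% of its mean TPM. *TAF1D*, a subunit of the selectivity factor SL1, ranged from 231 to 237 TPM in Control, and in A904 from 246 to 257 TPM. Replicate 1 was the highest of its A904 libraries (log2 fold change 0.10, limma adjusted p = 0.333). *POLR1E*, a subunit of the polymerase's lobe, had a log2 fold change of 0.15 and overlapping groups (limma adjusted p = 0.416). Without A904 replicate 1, *POLR1B* and *POLR1C* rose and *POLR1D* fell, and the other 5 did not pass. Of all tested genes, 9.51% rose and 9.24% fell in that fit.

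Of the 21 factors of small-subunit assembly, 20 had higher means in A904, and the median log2 fold change was 0.21. By limma, 0 passed the adjusted p. At p under 0.05 unadjusted, 12 were higher and 0 lower, against 9.95% and 5.87% of all tested genes. In 10 of them every A904 library was above every Control library, against 13.4% of all tested genes. *IMP4* (chromosome 2, 130342225 to 130347810), which helps U3 snoRNA pair with the precursor, had 45.0, 46.6 and 45.7 TPM in Control and 54.9, 54.7 and 56.5 TPM in A904. Here A904 replicate 1 matched the other two, and the log2 fold change of 0.27 had a standard error of 0.05 (limma adjusted p = 0.123). Its partner in the same complex, *IMP3*, had 68.1, 64.4 and 71.8 TPM in Control and 70.8, 70.7 and 67.5 TPM in A904, with overlapping groups (log2 fold change 0.03, limma adjusted p = 0.808). For *IMP3*, 38.5% of exon bases overlap *SNX33*, on the other strand and at 11.9 TPM. *EMG1*, a methyltransferase of the small-subunit RNA, had 13.3, 11.1 and 12.5 TPM in Control and 15.4, 16.9 and 16.2 TPM in A904. The log2 fold change was 0.37 (standard error 0.08, limma adjusted p = 0.208), but 30.7% of its exon bases overlap *LPCAT3*, on the other strand and at 41.3 TPM. *RRP9*, which binds U3 snoRNA, had 16.4, 13.6 and 15.7 TPM in Control and 18.7, 22.3 and 20.8 TPM in A904 (log2 fold change 0.41, limma adjusted p = 0.214). Its groups did not overlap either.

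The 5 genes here of the complex that binds the nascent precursor first, the UTP-A complex, had higher means throughout. *NOL11*, the most abundant of them, had 82.5, 75.8 and 79.9 TPM in Control and 89.3, 96.5 and 104 TPM in A904 (log2 fold change 0.28, limma adjusted p = 0.228). *WDR43* and *WDR75* had no overlap between groups either (log2 fold change 0.23 and 0.18, limma adjusted p = 0.238 and 0.261), while *UTP4* and *UTP15* did (0.25 and 0.13, limma adjusted p = 0.258 and 0.503). *UTP20*, a very large scaffold protein and the lowest of the 60 genes, had 3.43, 3.89 and 3.57 TPM in Control and 3.83, 4.44 and 4.84 TPM in A904, with overlapping groups (limma adjusted p = 0.391). *DDX10*, a helicase, spread widely within A904, with 18.4, 20.6 and 19.8 TPM in Control and 20.8, 27.6 and 31.2 TPM in A904 (log2 fold change 0.40, standard error 0.14, limma adjusted p = 0.263). *NOP14*, a factor of the early small-subunit particle, and *LTV1*, which acts in its export and late maturation, had log2 fold changes of 0.21 and 0.23, and their groups did not overlap. Of the late factors, *NOB1*, the nuclease that makes the final cut of the small-subunit RNA, ranged from 55.8 to 57.7 TPM in Control, and in A904 from 57.7 to 60.9 TPM (log2 fold change 0.06, limma adjusted p = 0.544). *BYSL* and *TSR1* had log2 fold changes of 0.19 and 0.16, and in both the groups overlapped. For *TSR1*, 21.4% of exon bases overlap *SRR*, on the other strand and at 4.31 TPM. *NOL6*, which acts with the early small-subunit particle, had a log2 fold change of 0.27 (limma adjusted p = 0.290), *UTP18* 0.17 (limma adjusted p = 0.315), *NOC4L* 0.16 (limma adjusted p = 0.426) and *RRP12*, an export factor, 0.06 (limma adjusted p = 0.809). *UTP3* ranged from 59.2 to 62.6 TPM in Control, and in A904 from 58.7 to 64.9 TPM and was the single gene of the group with a lower mean (log2 fold change −0.01, limma adjusted p = 0.952). Without A904 replicate 1, 13 of the 21 rose, against 9.51% of all tested genes. *UTP3*, *UTP15*, *UTP20*, *WDR75*, *NOC4L*, *RRP12*, *NOB1* and *IMP3* did not pass.

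Large-subunit assembly was the most uniform role. All 19 genes had higher means, and in all 19 every A904 library was above every Control library, against 13.4% of all tested genes. Further genes of this role, described below, were less uniform. Of those 44, 42 had higher means, and in 21 every A904 library was above every Control library. The median log2 fold change of the 19 was 0.26, with a range from 0.17 to 0.41. By limma, 0 passed the adjusted p (16 higher at p under 0.05 unadjusted, against 9.95% of all tested genes). *GNL3* (chromosome 3, 52681156 to 52694492), nucleostemin, a nucleolar GTPase abundant in dividing cells, had 67.2, 71.9 and 68.7 TPM in Control and 81.7, 85.9 and 88.7 TPM in A904. The log2 fold change was 0.30 (standard error 0.05, limma adjusted p = 0.136). *RRP1* (chromosome 21, 43789513 to 43805293), which acts in early large-subunit processing, had 13.2, 14.1 and 14.0 TPM in Control and 16.7, 17.1 and 17.6 TPM in A904. Its A904 libraries lay close together (log2 fold change 0.30, limma adjusted p = 0.191), and its paralog *RRP1B* had a log2 fold change of 0.17 (limma adjusted p = 0.375).

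PES1, BOP1 and WDR12 form the PeBoW complex, which is needed to mature the large-subunit RNAs. *PES1* had 35.8, 36.4 and 36.2 TPM in Control and 39.4, 46.2 and 42.8 TPM in A904. *WDR12* had 38.6, 39.0 and 39.5 TPM in Control and 41.6, 54.8 and 56.6 TPM in A904, and *BOP1* was lower throughout, at 15.2 to 16.8 TPM in Control against 16.8 to 19.1 TPM in A904. Log2 fold changes were 0.24, 0.36 and 0.19 (limma adjusted p = 0.238, 0.248 and 0.289), so the 3 subunits were higher together but none passed. The GTPase *GNL2* differed from most genes in that A904 replicate 1 was its highest library, with 51.4, 53.4 and 55.2 TPM in Control and 69.1, 65.6 and 58.7 TPM in A904 (log2 fold change 0.27, limma adjusted p = 0.232). Another GTPase, *GNL3L*, was low, at 8.16 to 8.81 TPM in Control against 8.92 to 10.1 TPM in A904.

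*NOP16*, *EBNA1BP2*, *MRTO4*, *WDR12* and *BRIX1*, all factors of the early large-subunit particle or its export, had the highest log2 fold changes of the group (0.41, 0.36, 0.35, 0.36 and 0.33). In the first 4 of these A904 replicate 1 was near the Control range. *NOP16* had 64.5, 57.4 and 61.1 TPM in Control and 64.9, 90.4 and 90.7 TPM in A904, and *MRTO4* had 38.2, 40.3 and 39.4 TPM in Control and 40.9, 56.5 and 55.7 TPM in A904. Their limma adjusted p values were 0.251 and 0.261, and 0.00233 and 0.00183 without A904 replicate 1. Of the exon bases of *NOP16*, 12.3% overlap *HIGD2A* on the other strand, whose mean was 112 TPM. For *BRIX1*, 25.0% overlap *RAD1*, also on the other strand and at 30.2 TPM. *NIP7* and *NOP2*, the latter a methyltransferase of the large-subunit RNA, had log2 fold changes of 0.26 and 0.24 (limma adjusted p = 0.226 and 0.238). Of the exon bases of *NOP2*, 70.9% are shared with a second annotated gene on the same strand, at 2.42 TPM. *NOC2L* and *NOC3L*, which act as a pair with other factors in particle transport, had 0.17 and 0.20. The helicases *DDX18* and *DDX56* had 0.18 each, and *RRS1*, which helps place the 5S RNA particle, had 0.25. Without A904 replicate 1, 15 of the 19 rose, against 9.51% of all tested genes. *NOC3L*, *NOP2*, *GNL2* and *GNL3L* did not pass.

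**Figure D3:**
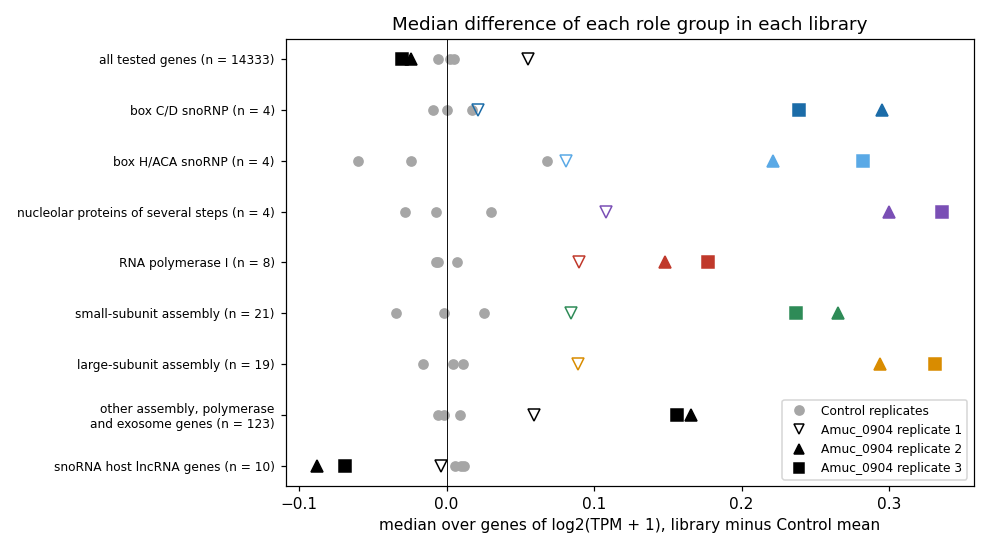
Median over the genes of each role, and of other lists, of the difference of each library from the Control mean on the log2(TPM + 1) scale (grey circles, Control; open triangles, A904 replicate 1; filled triangles and squares, A904 replicates 2 and 3). Every role of the 60 genes has A904 replicates 2 and 3 between 0.15 and 0.34, while the medians of all tested genes lie at −0.02 and −0.03 and snoRNA host RNAs at −0.09 and −0.07.

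Across the 6 libraries most of the genes followed one another. The correlation of each gene with the mean of the other 59, on the log2 scale, had a median of 0.94 (lowest −0.93, highest 0.999, Pearson's r, n = 6 libraries), and 39 of the 60 were over 0.9. It was negative for *POLR1D* (−0.93), *UTP3* (−0.48) and *UBTF* (−0.26). These values are a description, since all genes share the same libraries and A904 replicates 2 and 3 set most of the pattern. The genes in which A904 replicate 1 was the highest A904 library were *GNL2*, *IMP3*, *POLR1D*, *TAF1D* and *UTP3*. Replicate 1 lay below all Control libraries in *FBL*, *RRP12* and *SNU13*.

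A feature that the choice of genes did not use is that several of them carry snoRNA genes. In GENCODE 29, 9 of the 60 (15.0%) hold at least 1 annotated snoRNA gene inside their span on the same strand, against 1.64% of 11730 tested protein-coding genes. They are *NOP56* with 5, *NOP58* with 4, *DKC1* with 2, *NCL* with 3, *TAF1D* with 8, *WDR43* with 3, *NOL11* with 1, *TSR1* with 2 and *GNL3* with 6. The median log2 fold change was 0.23 in these 9 and 0.21 in the other 51, so carrying a snoRNA gene went with little difference.

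Other genes of the pathway had higher means as well, by less. Their lists were written from general knowledge, but with earlier results of these data known. Of 123 further assembly, polymerase and exosome genes, 111 had higher means, 0 passed the adjusted p (42 higher and 2 lower at p under 0.05 unadjusted), and the median log2 fold change was 0.12. Unadjusted, these shares were 9.95% and 5.87% over all tested genes. In 51 of the 123 every A904 library was above every Control library, and in 2 below, against 13.4% and 7.59% of all tested genes. The median was 0.11 for 10 genes of snoRNP assembly, 0.14 for 13 of polymerase I, 0.15 for 41 of small-subunit assembly, 0.11 for 44 of large-subunit assembly and 0.10 for 15 of the RNA exosome, which trims the precursor. In single libraries the median of the 123 was 0.06 in A904 replicate 1, as for all tested genes, and 0.17 and 0.16 in replicates 2 and 3.

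In polymerase I, *POLR1G* had 10.8, 10.8 and 11.6 TPM in Control and 13.7, 19.0 and 19.8 TPM in A904 (log2 fold change 0.60, limma adjusted p = 0.212), and *POLR2E*, shared by all 3 nuclear polymerases, had a log2 fold change of 0.27 (limma adjusted p = 0.232). Among small-subunit factors *PNO1* and *UTP23* had 0.31 and 0.20, among large-subunit factors *PWP1* and *CCDC86* 0.32 and 0.45, and in the exosome *EXOSC9* and *EXOSC5* 0.21 and 0.25 (limma adjusted p from 0.217 to 0.274). *TCOF1*, treacle, a nucleolar phosphoprotein listed with snoRNP assembly, had a log2 fold change of 0.25 (limma adjusted p = 0.249). A few genes had lower means. *NOP53*, a nucleolar factor of large-subunit processing in the same list, had 358, 345 and 347 TPM in Control and 336, 270 and 261 TPM in A904. All A904 libraries were below Control (log2 fold change −0.29, limma adjusted p = 0.258), as they were for *RIOK3*, a kinase of late small-subunit particles (−0.24, limma adjusted p = 0.232).

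The 10 long noncoding snoRNA host genes did not share the pattern of the proteins. Their median log2 fold change was −0.06, 4 had higher and 6 lower means, and 0 passed the adjusted p by limma. At p under 0.05 unadjusted, 3 were higher and 4 lower, against 9.95% and 5.87% of all tested genes. *GAS5* had 724, 686 and 657 TPM in Control and 668, 469 and 451 TPM in A904, and *ZFAS1* had 341, 332 and 336 TPM in Control and 327, 239 and 244 TPM in A904 (log2 fold change −0.40 and −0.33, both with limma adjusted p = 0.270). In *ZFAS1* the groups did not overlap, and in *GAS5* A904 replicate 1 lay within the Control range. *SNHG15* and *SNHG1* were higher in every A904 library (0.29 and 0.15, limma adjusted p = 0.214 and 0.243).

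*MYC*, a transcription factor known to activate ribosome biogenesis genes through E-boxes, had 75.7, 81.4 and 76.3 TPM in Control and 91.5, 107 and 107 TPM in A904. All A904 libraries were above Control (log2 fold change 0.38, standard error 0.07, limma adjusted p = 0.157, and 0.00224 without A904 replicate 1). Over the 10 tested genes of the MYC network the median was −0.02, with 4 higher and 6 lower means and 0 past the adjusted p. *MLX* had 0.14 (limma adjusted p = 0.270), and *MAX*, with overlapping groups, had −0.25 (limma adjusted p = 0.312). Of 7 genes of the 5S particle and the p53 link, which senses faults in ribosome assembly, 0 passed. *CDKN1A*, the cell cycle inhibitor induced by p53, had 9.06, 8.02 and 9.44 TPM in Control and 5.89, 5.36 and 5.70 TPM in A904, well below Control in every library (log2 fold change −0.56, limma adjusted p = 0.0993). *MDM2*, also induced by p53, went the other way, with 14.8, 17.2 and 19.4 TPM in Control and 23.4, 19.8 and 19.7 TPM in A904, all above Control (log2 fold change 0.28, limma adjusted p = 0.298). *CDKN2A* had 0.26 (limma adjusted p = 0.250).

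The summed TPM of 12 markers of proliferation was also highest in A904 replicates 2 and 3. By limma, 0 passed the adjusted p (7 higher at p under 0.05 unadjusted, against 9.95% of all tested genes). All 12 had higher means, with a median log2 fold change of 0.18. In 6 of the 12 every A904 library was above every Control library, against 13.4% of all tested genes. *TOP2A* had overlapping groups and a log2 fold change of 0.01. Their summed TPM was 1292 to 1297 in Control and 1338, 1558 and 1539 in A904, with *MKI67* at 35.6 to 38.2 TPM in Control and 37.3, 42.6 and 44.1 TPM in A904. Their part in the ribosome biogenesis values was not tested.

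**Figure D4:**
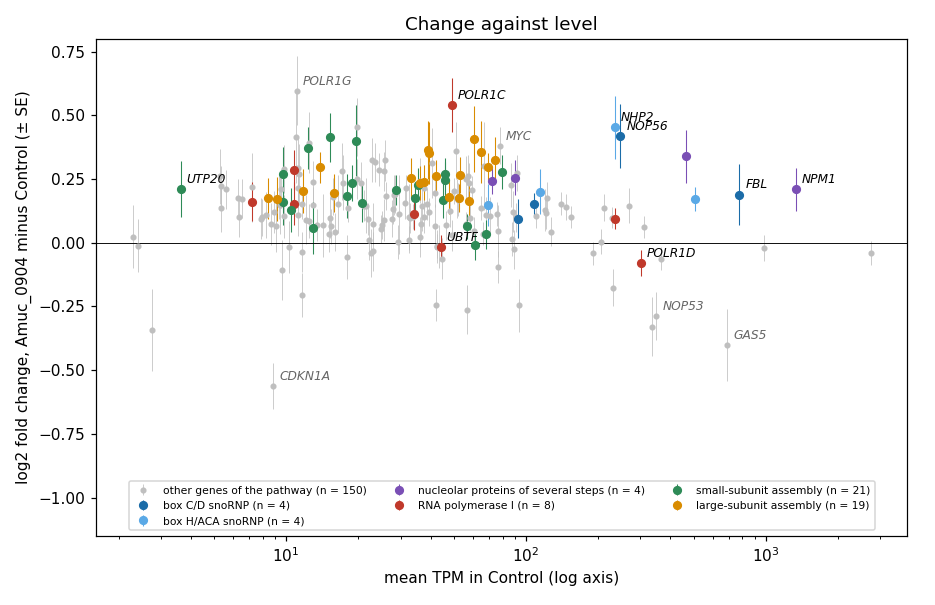
Log2 fold change of A904 against Control (± standard error) against the mean TPM in Control (log axis), with the 60 genes coloured by role and 150 other genes of the pathway in grey. The 60 genes lie mostly between 0.06 and 0.54 at all levels, while *GAS5* at −0.40 and *CDKN1A* at −0.56 lie lowest among the grey points.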

How the data were processed

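Total RNA of 6 HT−29 libraries was sequenced. The authors trimmed paired reads with SeqPrep and Sickle, aligned them with HISAT2 and assembled them with StringTie, and the submitters' processing notes also name RSEM and edgeR (no versions given). The deposited values are TPM per gene, as the authors gave them, rounded to 2 decimals. The labels name a mouse build while the gene identifiers are human, so the build behind the values is not given in the sources used here.

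Of the file's lines, 25 hold only annotation text and were left out. Log2(TPM + 1) was fitted with limma 3.58.1 in R 4.3.3 (trend, robust, group as the only term), two-sided, with Benjamini-Hochberg adjustment over all 14333 tested genes. The fit was tested on simulated data. The members and the gene lists were chosen with earlier results of these data known, so no set test was run, and the motifs were chosen after the values were seen. All 60 members could be named. Those planned to be given in full were, in each role, the 2 with the smallest p and the highest and lowest levels. Of other lists they were the 2 with the smallest p, with *MYC* and *MKI67*. Some of these, among them *BRIX1*, *GAR1* and *GNL3L*, are given by range or fold change only. Others (among them *GAS5*, *ZFAS1*, *MDM2*, *MAX*, *CD68*, *SNU13* and *NOP16*) were added after their values were seen. Gene positions, snoRNA genes and exon overlaps are from GENCODE 29 on GRCh38, matched by gene identifier. That release may not be the one the authors used. Exons of 21 of the 60 genes overlap those of another protein-coding gene, in 11 by at least 10% of their bases.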

Additional observations from a re-analysis of the deposited data

How the results depend on the processing

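The 15 alternatives changed the pseudocount, the filter, the scaling, library weights, a replicate block or the libraries. With 0.1 or 5 as pseudocount, no filter, a minimum of 5 TPM, median-of-ratios or quantile scaling, mitochondrial transcripts left out, or the block, 0 of the 60 genes passed. With array weights, which gave A904 replicate 1 a weight of 0.224, 41 of the 60 rose and 0 fell, as did 37 and 6 of the other pathway genes and 1315 and 1056 of all tested genes. Leaving out 1 library gave 0 to 42 genes of the 60 that rose and 0 to 1 that fell, 0 to 38 and 0 to 7 of the other pathway genes, and 1 to 1339 and 6 to 1301 of all tested genes. The high ends are all without A904 replicate 1, and without any other library 0 of the 60 passed. Over all tested genes 6 rose with median-of-ratios scaling, 3 rose and 15 fell without a filter, and 5 rose and 16 fell with the replicate block. Deviations of same-numbered libraries correlated at 0.046, −0.039 and −0.005, and those of differently numbered libraries at −0.042 to 0.054. No shared effect of the replicate number was seen, but this cannot decide if the samples were paired. The median log2 fold change of the 60 genes lay between 0.18 and 0.27 over the 15 alternatives, and it was 0.18 with mitochondrial transcripts left out, where the median of all tested genes was −0.02. The direction turned in 6 of 899 values of single genes. *UTP3*, at −0.01 (−0.053 to 0.018 over left-out libraries), was 0.004 and 0.003 without Control replicates 2 and 3, and 0.007 and 0.018 without A904 replicates 2 and 3. *IMP3* was −0.006 without Control replicate 2 (range −0.006 to 0.071), and *RRP12* −0.029 without A904 replicate 2 (range −0.029 to 0.141). The cause was not tested. The depth of the libraries is unknown, which limits what can be said of low genes such as *UTP20*.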
